A study of Mus musculus with 18 samples.

Results

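The genes described here are 10 immediate early genes, Fos, Fosb, Fosl2, Jun, Junb, Egr1, Egr2, Egr3, Arc and Homer1, followed across skeletal muscle, heart muscle and hippocampus of transgenic and wild type mice. They were chosen by name, and a probe set was taken for a gene where the gene was the only symbol the platform annotation gave it. Each of the 10 genes had exactly 1 such probe set, out of 35382 probe sets and 18781 gene symbols in all. The probe sets of the genes called below were 10580282 for Junb, 10454782 for Egr1, 10416251 for Egr3, 10429491 for Arc and 10406626 for Homer1. The transgenic C57BL/6 mice, titled +/+ in the labels, express TN-XXL, a fluorescent calcium indicator built around a calcium-binding domain of troponin C, and their wild type littermates served as controls. The 18 arrays formed 6 groups of 3: transgenic skeletal muscle, wild type skeletal muscle, transgenic heart, wild type heart, transgenic hippocampus and wild type hippocampus. Total RNA was extracted from tissue with a column kit, and biotin-labelled cDNA made from it was hybridised to Affymetrix whole-transcript arrays. The sources used here give neither the age nor the sex of the mice, nor the promoter driving the transgene, nor whether one animal supplied several tissues.

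Immediate early genes are switched on within minutes of a stimulus, such as calcium entry, synaptic activity or a growth factor, from transcription factors already present in the cell. The Fos and Jun proteins pair to form AP-1, a transcription factor that binds a short palindromic site, while the Egr proteins are zinc finger transcription factors that bind GC-rich sites. Arc and Homer1 act outside the nucleus: Arc takes part in removing AMPA receptors from synapses, and Homer proteins tether glutamate receptors, IP3 receptors and ryanodine receptors. In the hippocampus these genes are widely used as markers of recently active neurons. Their promoters are classically described as carrying CArG boxes, bound by serum response factor, and cAMP response elements (CRE), bound by CREB.

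Promoter sequences from RefSeq (assembly GRCm38.p6), taken by symbol, were used for 7 of the 10 members, with 12 windows of 250 bases before a transcription start. No window was used for Arc, Egr1 and Egr3, and their promoters are not described here. Sequences are shown for the 5 members with a window that holds the CRE core TGACG. Its presence in all 5 follows from that choice, and the windows of Jun and Fosl2 are not shown. Each is written 5′ to 3′ along the gene's strand and ending at the base before the start. Capitals mark the matches to the motifs searched. The core is marked on either strand, and the windows stand for Fos at chr12:85473640-85473889 (plus strand), Fosb at chr7:19310046-19310295 (minus strand), Junb at chr8:84978749-84978998 (minus strand), Egr2 at chr10:67537619-67537868 (plus strand) and Homer1 at chr13:93303507-93303756 (plus strand).
Fos: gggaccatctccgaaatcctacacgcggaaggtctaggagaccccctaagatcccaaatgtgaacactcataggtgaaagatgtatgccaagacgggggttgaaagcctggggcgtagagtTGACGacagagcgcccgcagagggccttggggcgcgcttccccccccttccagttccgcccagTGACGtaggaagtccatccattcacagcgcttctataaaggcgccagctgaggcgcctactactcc
Fosb: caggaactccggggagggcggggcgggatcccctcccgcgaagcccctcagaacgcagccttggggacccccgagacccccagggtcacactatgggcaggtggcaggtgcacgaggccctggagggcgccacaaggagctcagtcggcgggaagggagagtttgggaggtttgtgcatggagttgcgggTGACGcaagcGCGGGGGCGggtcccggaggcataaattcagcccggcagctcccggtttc
Junb: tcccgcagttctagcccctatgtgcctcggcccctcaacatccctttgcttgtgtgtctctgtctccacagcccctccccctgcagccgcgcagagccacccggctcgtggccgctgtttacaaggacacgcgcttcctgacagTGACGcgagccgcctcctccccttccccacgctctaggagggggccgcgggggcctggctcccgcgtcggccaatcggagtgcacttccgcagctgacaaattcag
Egr2: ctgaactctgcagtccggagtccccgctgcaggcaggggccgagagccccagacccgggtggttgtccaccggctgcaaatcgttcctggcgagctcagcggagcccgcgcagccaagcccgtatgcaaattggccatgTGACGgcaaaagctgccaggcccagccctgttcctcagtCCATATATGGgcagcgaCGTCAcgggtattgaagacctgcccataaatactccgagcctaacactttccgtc
Homer1: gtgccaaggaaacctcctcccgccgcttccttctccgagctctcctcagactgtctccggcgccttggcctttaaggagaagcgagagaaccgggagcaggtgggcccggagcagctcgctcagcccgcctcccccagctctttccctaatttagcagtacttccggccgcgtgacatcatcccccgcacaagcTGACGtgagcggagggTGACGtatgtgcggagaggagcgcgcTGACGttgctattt

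The motifs searched on both strands were the CArG box by name, the CRE TGACGTCA, its core TGACG, the AP-1 site TGANTCA, the E-box CACGTG and the EGR site GCGNGGGCG; a full CRE also holds the core. The core was found in a window of 5 of the 7 members (Fos, Fosb, Junb, Egr2 and Homer1) and in 7 of their 12 windows. Several of those 7 are overlapping windows of Egr2 that hold the same sites, so the count by window repeats them. Over all mouse promoters of the same length the core was in a window of 19.8% of 27025 genes and in 17.8% of 32851 windows. In Fos it lay 125 to 129 and 62 to 66 bases before the start, and in Homer1 it occurred 3 times, 52 to 56, 36 to 40 and 10 to 14 bases before it. A CArG box was found for 1 of the 7 members, Egr2, at 63 to 72 bases before the start in the window shown, against 1.62% of all genes. The EGR site was found for Fosb, at 42 to 50 bases, and for Fosl2 (5.33% of all genes). An E-box was found in another window of Egr2 (6.86% of all genes), and neither the full CRE (1.77% of all genes) nor the AP-1 site (7.82%) was found in these windows of the 7 members. A match of letters is a description of the sequence and not a measured site.

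All values below are log2 RMA values as deposited, so that a difference of 1 is a doubling. Array medians were 2.44 to 2.49 in skeletal muscle, 2.61 to 2.63 in heart and 3.68 to 3.71 in hippocampus, and arrays of 1 group correlated at 0.982 to 0.993 across probe sets. The 7 skeletal muscle markers, among them Ckm and Acta1, averaged 11.56 to 11.61 on transgenic and 11.51 to 11.58 on wild type muscle arrays. The 6 measured heart markers, among them Myh6 and Tnni3, averaged 11.24 to 11.34 on transgenic and 11.07 to 11.16 on wild type heart arrays. The 7 markers of hippocampal neurons, among them Snap25 and Neurod6, averaged 9.60 to 9.70 on transgenic and 9.59 to 9.72 on wild type hippocampus arrays, so each tissue carried the markers of its label. The labels number the replicates but do not say that each is a separate animal, so the p-values reflect the spread among these arrays alone, and that spread may be technical.

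**Figure D1:**
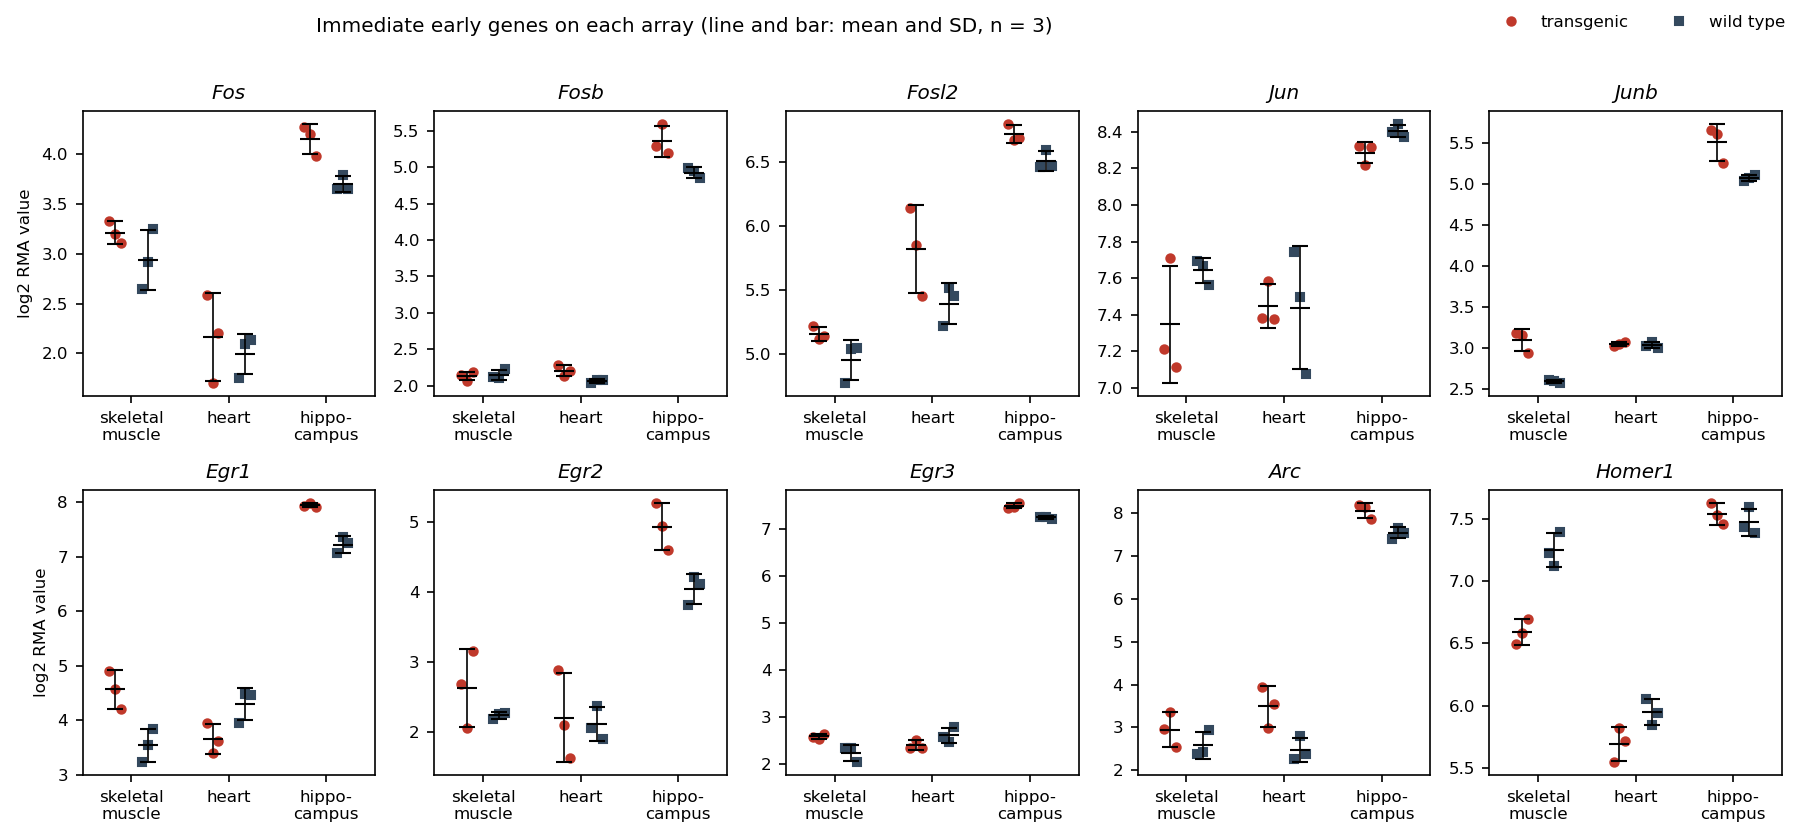
Log2 RMA values of the 10 genes (y axis, on its own scale in each panel) in skeletal muscle, heart and hippocampus (x axis), with a point for each transgenic array (red circles) and wild type array (dark squares) and black lines for the mean and SD of 3 arrays. Arc and Egr3 lie between 7.23 and 8.19 in hippocampus and under 4 in both striated muscles, while Jun lies above 7 on all 18 arrays.

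In skeletal muscle, Junb, Egr1 and Egr3 rose and Homer1 fell in transgenic mice (limma, adjusted p under 0.05 by the Benjamini-Hochberg method over the whole table). These 4 calls among 10 members stand beside 8.15% of all 35382 probe sets called in this comparison, 3.86% higher and 4.3% lower. The table includes probe sets without a gene symbol. Over single-symbol probe sets, like those of the members, the same 4 were called, beside 2975 of 21153. The 10 members had a median difference of 0.32, against 0.02 over all probe sets. The transgenic arrays all lay above the wild type arrays for 4 members and all below for 1, and 21.9% of all probe sets were set apart in either direction.

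Among the AP-1 genes, Junb, whose product is a Jun family partner in AP-1, stood at 3.19, 3.16 and 2.95 on transgenic muscle arrays and at 2.61, 2.60 and 2.57 on wild type muscle arrays. The groups did not overlap, and the wild type arrays were close together, near the array median. The difference was 0.50 ± 0.10 (SE of the fit, 95% confidence interval 0.30 to 0.71), or 1.42-fold, with a limma adjusted p of 0.00327. Fos, the founding member of the Fos family, stood at 3.33, 3.20 and 3.11 on transgenic and at 2.65, 2.91 and 3.25 on wild type arrays; wild type array 3 lay inside the transgenic range, and the difference of 0.28 ± 0.19 did not pass (adjusted p = 0.504). Fosl2, which encodes the Fos-related antigen Fra-2, was higher on every transgenic array (5.22, 5.12 and 5.14) than on the wild type arrays (4.77, 5.04 and 5.05), at 0.21 ± 0.14 (adjusted p = 0.488). Jun, the classic Jun family partner of Fos, differed by −0.30 ± 0.16 (adjusted p = 0.340) and Fosb, below the array median in both genotypes, by −0.02 ± 0.09 (adjusted p = 0.957).

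Among the Egr genes, Egr1 stood at 4.91, 4.58 and 4.21 in transgenic muscle and at 3.23, 3.55 and 3.83 in wild type muscle. All transgenic arrays were above all wild type arrays, and both groups were widely spread. Egr1 rose by 1.03 ± 0.20, or 2.04-fold (95% confidence interval 0.61 to 1.45, adjusted p = 0.00344). Egr3, a close relative of Egr1, was read at 2.58, 2.54 and 2.65 in transgenic and 2.33, 2.34 and 2.04 in wild type muscle, near the array medians in both groups. The groups did not overlap, and the difference was 0.35 ± 0.10 (adjusted p = 0.0337). Egr2, known for its part in Schwann cell myelination, varied widely on the transgenic arrays (2.70, 2.06 and 3.16) and little on the wild type arrays (2.18, 2.27 and 2.28), the groups overlapped, and the difference of 0.39 ± 0.29 did not pass (adjusted p = 0.546).

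Of the 2 synaptic effector genes, Homer1 fell in transgenic muscle. It stood at 6.49, 6.58 and 6.70 on the transgenic arrays and at 7.22, 7.12 and 7.39 on the wild type arrays. Every transgenic array lay below every wild type array, and Homer1 fell by 0.65 ± 0.10 on the log2 scale (95% confidence interval −0.87 to −0.44, adjusted p = 5.38e-04), a 1.57-fold difference. The probe set lists 11 transcript accessions, and the short activity-induced form of Homer1 was not separated from the long forms here. Arc overlapped between transgenic (2.96, 3.35 and 2.53) and wild type muscle (2.38, 2.42 and 2.95), at 0.36 ± 0.25 (adjusted p = 0.490).

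Fitted on the muscle arrays alone, Homer1 kept its call (adjusted p = 0.0381) and Junb (0.0605), Egr1 (0.0773) and Egr3 (0.197) did not. The call on Egr3 also ended without wild type array 3 (adjusted p = 0.149) or transgenic array 1 (0.0719), 2 (0.0568) or 3 (0.110), and with array quality weights (0.0520). Endothelial markers (7 of 7 measured, none under the array median) were lower in transgenic muscle. Their summed level was 40.70 to 44.15 on transgenic and 46.04 to 46.83 on wild type muscle arrays, and 4 of 7 were called lower. Leukocyte markers (7 of 7 measured, 3 under the array median) summed to 22.76 to 24.99 on transgenic and 21.49 to 22.83 on wild type arrays, with Cd68 called higher (0.93 ± 0.16, adjusted p = 0.00165). Markers of hippocampal neurons (7 measured, 4 under the array median) summed to 22.07 to 22.60 on transgenic and 23.30 to 24.32 on wild type muscle arrays, and 2 of 7, Camk2a and Wfs1, were called lower. Their part in the result was not tested, and in whole tissue fewer cells of a type and less RNA per cell cannot be told apart.

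In heart, 1 member, Arc, was called. Arc stood at 3.95, 2.97 and 3.54 on transgenic heart arrays and at 2.25, 2.79 and 2.37 on wild type heart arrays. The groups did not overlap, but transgenic array 2 and wild type array 2 came close to each other. Arc rose by 1.02 ± 0.25, or 2.03-fold (95% confidence interval 0.49 to 1.54, adjusted p = 0.0366), from a wild type mean under the array median. This 1 call among 10 members stands beside 3.19% of all probe sets called in heart, and the member median of 0.05 beside 0.00 over all probe sets. Over single-symbol probe sets 2 members were called, beside 1285 of 21153. The call on Arc ended when the heart arrays were fitted alone (adjusted p = 0.207) and under quantile normalization of all arrays (0.0569). It also ended without wild type array 1 (0.132), wild type array 3 (0.105), transgenic array 1 (0.123) or transgenic array 3 (0.110).

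Egr1 in heart was read at 3.95, 3.41 and 3.61 on transgenic arrays and at 3.96, 4.47 and 4.45 on wild type arrays. The transgenic values were all the lower ones, though transgenic array 1 and wild type array 1 nearly met. The difference of −0.64 ± 0.20 did not pass over all probe sets (adjusted p = 0.104), and passed when only probe sets with 1 gene symbol were tested (0.047) or when the probe sets of a gene were averaged (0.0419). Homer1 was also lower on every transgenic heart array (5.55, 5.82 and 5.72) than on the wild type arrays (6.05, 5.85 and 5.94), at −0.25 ± 0.10 (adjusted p = 0.226). Egr3 differed by −0.20 ± 0.10 (adjusted p = 0.334).

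The AP-1 genes of the heart did not pass. Fosl2 stood at 6.14, 5.85 and 5.46 on transgenic and 5.22, 5.51 and 5.46 on wild type heart arrays, where transgenic array 3 lay within the wild type range, and differed by 0.42 ± 0.14 (adjusted p = 0.130). Without transgenic array 3 the difference was 0.60 and was called (adjusted p = 0.0194), and Arc was then not. Junb was nearly equal, at 3.03, 3.06 and 3.08 on transgenic and 3.02, 3.07 and 3.01 on wild type arrays, with a 95% confidence interval of −0.19 to 0.22 for its difference. Fos, Jun, Fosb and Egr2 differed by 0.01 to 0.17, with adjusted p of 0.544 to 0.991. Transgenic arrays lay all above for 2 members (Fosb and Arc) and all below for 2 (Egr1 and Homer1), beside 18.5% of all probe sets set apart in either direction. The summed endothelial markers were 49.68 to 51.89 on transgenic and 53.91 to 54.31 on wild type heart arrays (2 of 7 called lower), and the summed leukocyte markers 28.87 to 29.28 on transgenic and 27.61 to 28.90 on wild type arrays (none called of 7). The summed skeletal muscle markers (7 measured, 5 under the array median) were 27.64 to 28.65 on transgenic and 29.06 to 30.00 on wild type heart arrays, with Acta1 called lower (−1.18 ± 0.23, adjusted p = 0.0101). The summed markers of hippocampal neurons were 28.48 to 29.56 on transgenic and 28.70 to 30.35 on wild type heart arrays, with 1 of 7, Prox1, called lower. Of the 6 measured heart markers 1 was called higher and 1 lower in transgenic heart. Nppa, which encodes atrial natriuretic peptide, was higher by 1.36 ± 0.15 (adjusted p = 1.87e-04), and Ryr2, the cardiac calcium release channel gene, differed by −0.38 ± 0.07 (0.00971). The part of these markers in the result was not tested.

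In hippocampus, 8 of the 10 genes were higher on every transgenic array than on every wild type array, yet none passed the test over all probe sets. No probe set of the whole table did (0% of 35382 called in either direction), and 5.04% had an unadjusted p under 0.05. Of the members, 6 had an unadjusted p under 0.05, all of them higher in transgenic hippocampus. The member median was 0.43, against −0.01 over all probe sets. Transgenic arrays lay all above wild type arrays for 5.95% of all probe sets, and apart in either direction for 13.3%.

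The AP-1 genes Fosb and Junb ranked 24 and 29 among all probe sets by unadjusted p. Fosb was read at 5.29, 5.59 and 5.19 in transgenic and at 4.99, 4.95 and 4.85 in wild type hippocampus, a difference of 0.43 ± 0.09 (unadjusted p = 3.43e-04, limma adjusted p = 0.467). Junb was read at 5.66, 5.61 and 5.25 in transgenic and at 5.04, 5.07 and 5.11 in wild type hippocampus, a difference of 0.44 ± 0.10 (unadjusted p = 4.08e-04, adjusted p = 0.467). In both genes the transgenic arrays were the higher and the more spread. Fos stood at 4.27, 4.20 and 3.99 in transgenic and 3.66, 3.79 and 3.65 in wild type hippocampus, at 0.45 ± 0.19 (unadjusted p = 0.0316, adjusted p = 0.960). The wild type mean of Fos, 3.70, lay at the array median. Fosl2 differed by 0.21 ± 0.14, again with no overlap (6.67 to 6.79 in transgenic and 6.46 to 6.60 in wild type hippocampus). Jun went the other way, at 8.32, 8.22 and 8.32 on transgenic and 8.40, 8.44 and 8.37 on wild type arrays, by −0.12 ± 0.16 (95% confidence interval −0.45 to 0.22).

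Each of the Egr genes was higher on the transgenic arrays of hippocampus. Egr1 stood at 7.93, 7.98 and 7.91 on transgenic and 7.06, 7.35 and 7.25 on wild type arrays, at 0.72 ± 0.20 (1.65-fold, adjusted p = 0.596). Egr2 stood at 5.26, 4.94 and 4.59 on transgenic and 3.81, 4.22 and 4.11 on wild type arrays, at 0.89 ± 0.29 (1.85-fold, adjusted p = 0.816), and had the largest difference of the 10 genes in this tissue. The wild type mean of Egr2 was 0.34 above the array median. Egr3 was read at 7.46, 7.49 and 7.56 on transgenic and 7.27, 7.26 and 7.23 on wild type arrays, at 0.25 ± 0.10 (adjusted p = 0.913). None of these 3 genes overlapped between the genotypes.

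Arc, whose transcript travels to active synapses, was read at 8.19, 8.15 and 7.87 in transgenic and 7.41, 7.67 and 7.55 in wild type hippocampus. All transgenic arrays were higher, and the difference was 0.52 ± 0.25 (95% confidence interval −0.0031 to 1.05, adjusted p = 0.991). Homer1 overlapped, at 7.62, 7.53 and 7.45 on transgenic and 7.44, 7.59 and 7.38 on wild type arrays, with a difference of 0.07 ± 0.10. The summed markers of hippocampal neurons (7 of 7 measured) were 67.21 to 67.87 on transgenic and 67.13 to 68.03 on wild type arrays, and those of astrocytes (4 of 4) 36.64 to 36.78 on transgenic and 36.46 to 36.87 on wild type arrays. The 2 measured oligodendrocyte markers of 4 summed to 15.58 to 16.12 on transgenic and 14.96 to 15.67 on wild type arrays, with none called, and their part in the result was not tested. A permutation of 3 arrays against 3 cannot give a two-sided p under 0.1, so single genes have no exact test that could pass here.

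**Figure D2:**
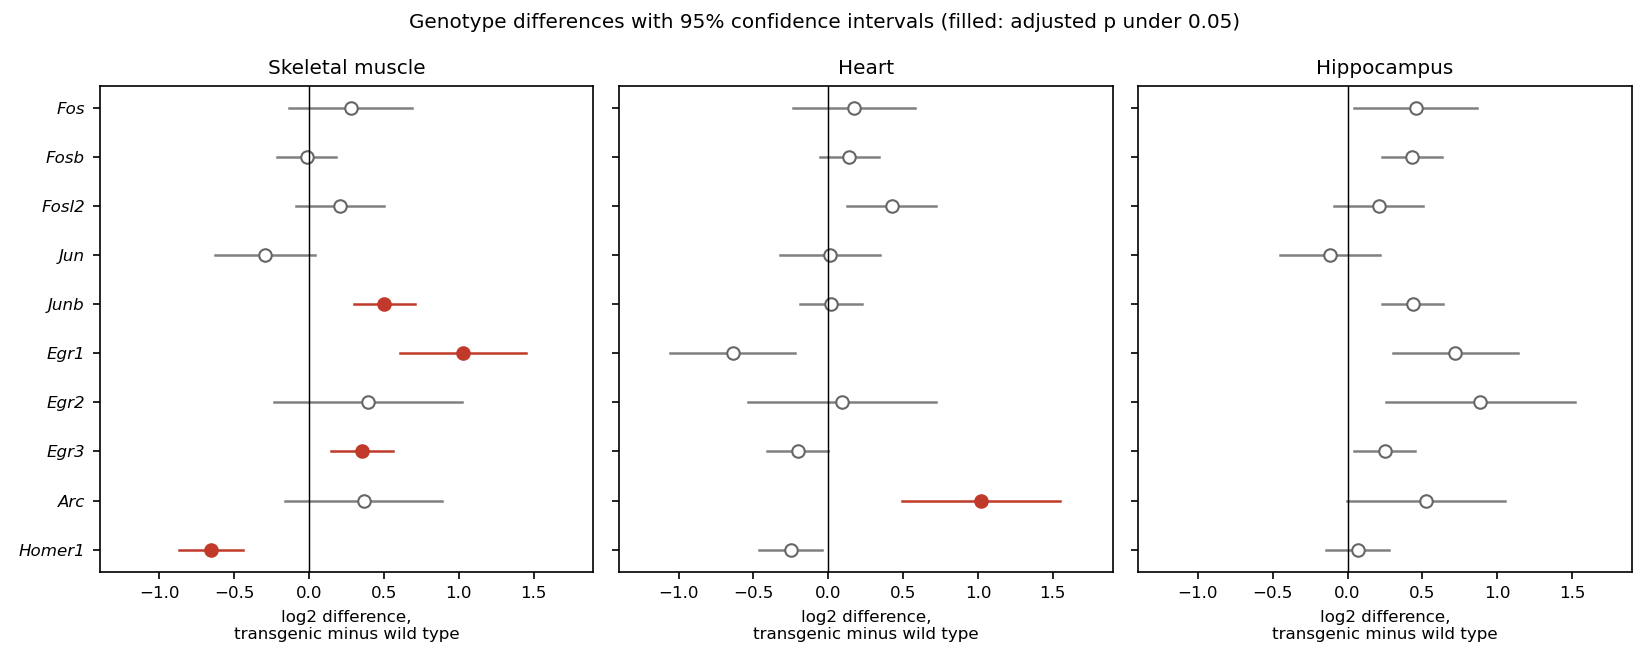
Log2 difference of each gene, transgenic minus wild type (x axis), in skeletal muscle, heart and hippocampus, with points for the estimates, lines for 95% confidence intervals and filled red points for an adjusted p under 0.05. In muscle 4 genes are filled, in heart 1 (Arc) and in hippocampus 0, where 8 of the 10 transgenic groups lay wholly above the wild type groups.

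Averaged over the 3 tissues, Junb (0.32 ± 0.06, adjusted p = 0.00255) and Arc (0.64 ± 0.14, adjusted p = 0.0142) were higher and Homer1 (−0.28 ± 0.06, adjusted p = 0.00802) was lower in transgenic mice. These means cover unlike differences in muscle, heart and hippocampus. In that order they were 0.50, 0.02 and 0.44 for Junb, 0.36, 1.02 and 0.52 for Arc, and −0.65, −0.25 and 0.07 for Homer1. The 3 calls of 10 on the mean stand beside 5.8% of all probe sets. Tested over the single-symbol probe sets alone, Fosl2, Fosb and Egr1 were called as well (adjusted p of 0.0245, 0.0356 and 0.0319). The 5.8% belongs to the whole table, and no share is given here for the single-symbol test of the mean. In the single tissues that setting called 2975 of 21153 probe sets in muscle and 1285 in heart. Over the whole table the mean difference of Fosl2 was 0.28 ± 0.08 (adjusted p = 0.0560), that of Fosb 0.18 ± 0.05 (0.0589) and that of Egr1 0.37 ± 0.11 (0.0760).

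Whether the genotype difference varied with tissue was tested by the interaction of genotype and tissue, which called Egr1 (limma moderated F test, adjusted p = 0.00524) and Homer1 (adjusted p = 0.0213). That is 2 of 10 members beside 3.89% of all probe sets. The Egr1 difference was 1.03 in muscle, −0.64 in heart and 0.72 in hippocampus. Its difference in heart lay below that in muscle by 1.67 ± 0.28 (adjusted p = 0.00412; 2.55% of all probe sets called), and its difference in hippocampus lay above that in heart by 1.36 ± 0.28 (adjusted p = 0.0414; 0.582% called). The difference in hippocampus minus that in muscle was −0.31 ± 0.28 (adjusted p = 0.715).

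Homer1 was lower by 0.65 in transgenic muscle, with a difference of −0.25 in heart and of 0.07 in hippocampus. Its genotype difference in hippocampus exceeded that in muscle by 0.72 ± 0.14 (adjusted p = 0.00917; 3.4% of all probe sets called), while heart minus muscle gave 0.40 ± 0.14 (adjusted p = 0.175). The interaction of Homer1 ended without transgenic muscle array 1 (adjusted p = 0.0520), wild type hippocampus array 1 (0.0511) or 3 (0.0536), or transgenic hippocampus array 1 (0.0548) or 2 (0.0510). Egr3 did not pass the interaction (adjusted p = 0.0550), although its genotype difference in heart minus that in muscle was −0.56 ± 0.14 (adjusted p = 0.0424). Its interaction was called without the dimmer probe sets (0.0330), over single-symbol probe sets (0.0283), over gene means (0.0268) and without wild type heart array 2 (0.0360). Junb had an interaction at adjusted p = 0.0948, with differences of 0.50, 0.02 and 0.44 in muscle, heart and hippocampus. For Fos, Fosl2, Jun, Egr2 and Arc the interaction had adjusted p of 0.545 to 0.837.

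Across the tissues of wild type mice, Egr3 and Arc stood out in hippocampus, at 7.25 ± 0.03 and 7.55 ± 0.13 (SD, n = 3), against 2.24 ± 0.17 and 2.58 ± 0.32 in muscle and 2.61 ± 0.16 and 2.47 ± 0.28 in heart. As deposited, 9 of 10 members were called higher in hippocampus than in muscle and 10 of 10 higher than in heart, beside 78.2% and 76.8% of all probe sets called in either direction (70.1% and 67.3% higher in hippocampus). The deposited hippocampus values were higher as a whole: the median of all probe sets was 0.67 above muscle and 0.61 above heart. With each array centred on its median that shift was −0.58 against muscle and −0.47 against heart, and with quantile normalization −0.09 and −0.07. Levels are therefore given for the deposited, the centred and the quantile normalized values in turn.

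Hippocampus exceeded muscle under each of these 3 scalings, with a call in each, for Egr3 (5.02, 3.76 and 3.93), Arc (4.96, 3.70 and 3.78), Egr1 (3.68, 2.42 and 2.30), Fosb (2.78, 1.52 and 1.48) and Junb (2.48, 1.22 and 0.98). For Egr2 (1.80, 0.54 and 0.56) and Fosl2 (1.55, 0.29 and 0.19) the call held on the deposited values only. The direction turned with the scaling for Fos (0.76, −0.50 and −0.64), Jun (0.76, −0.50 and −0.06) and Homer1 (0.22, −1.04 and −0.77). After centring and after quantile normalization, limma called hippocampus lower for Fos (adjusted p of 0.0259 and 0.0207) and Homer1 (1.66e-07 and 5.98e-06). Jun was called lower after centring (0.00906) and not after quantile normalization (0.767). On the deposited values Fos and Jun were called higher and Homer1 was not called (0.0511). Against heart, hippocampus was called higher under all 3 scalings for the same 5 genes, with Arc at 5.08, 3.99 and 4.13 and Egr3 at 4.65, 3.56 and 3.63, and also for Fos (1.71, 0.62 and 0.72) and Homer1 (1.52, 0.43 and 0.59). Egr2 differed from heart by 1.92, 0.84 and 0.84, the last not called (adjusted p = 0.0602), and Fosl2 by 1.11, 0.03 and 0.06. Jun turned direction against heart (0.97, −0.12 and 0.20).

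Between the striated muscles, wild type heart was lower than wild type muscle in Homer1 (−1.30, −1.47 and −1.36) and in Fos (−0.94, −1.11 and −1.36), with a call under each scaling. Homer1 averaged 5.95 ± 0.10 in heart and 7.25 ± 0.14 in muscle, and Fos 1.99 ± 0.21 in heart, under the array median, and 2.94 ± 0.30 in muscle. On the deposited values 6 of 10 members were called between these tissues, beside 38.7% of all probe sets. Heart was higher for Egr1 (0.76, 0.59 and 0.35), Junb (0.44, 0.27 and 0.22), Fosl2 (0.44, 0.27 and 0.13) and Egr3 (0.37, 0.20 and 0.30), none of them called after quantile normalization and Fosl2 and Egr3 not after centring either. Arc, Jun, Egr2 and Fosb did not pass on the deposited values (adjusted p of 0.345 to 0.786).

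**Figure D3:**
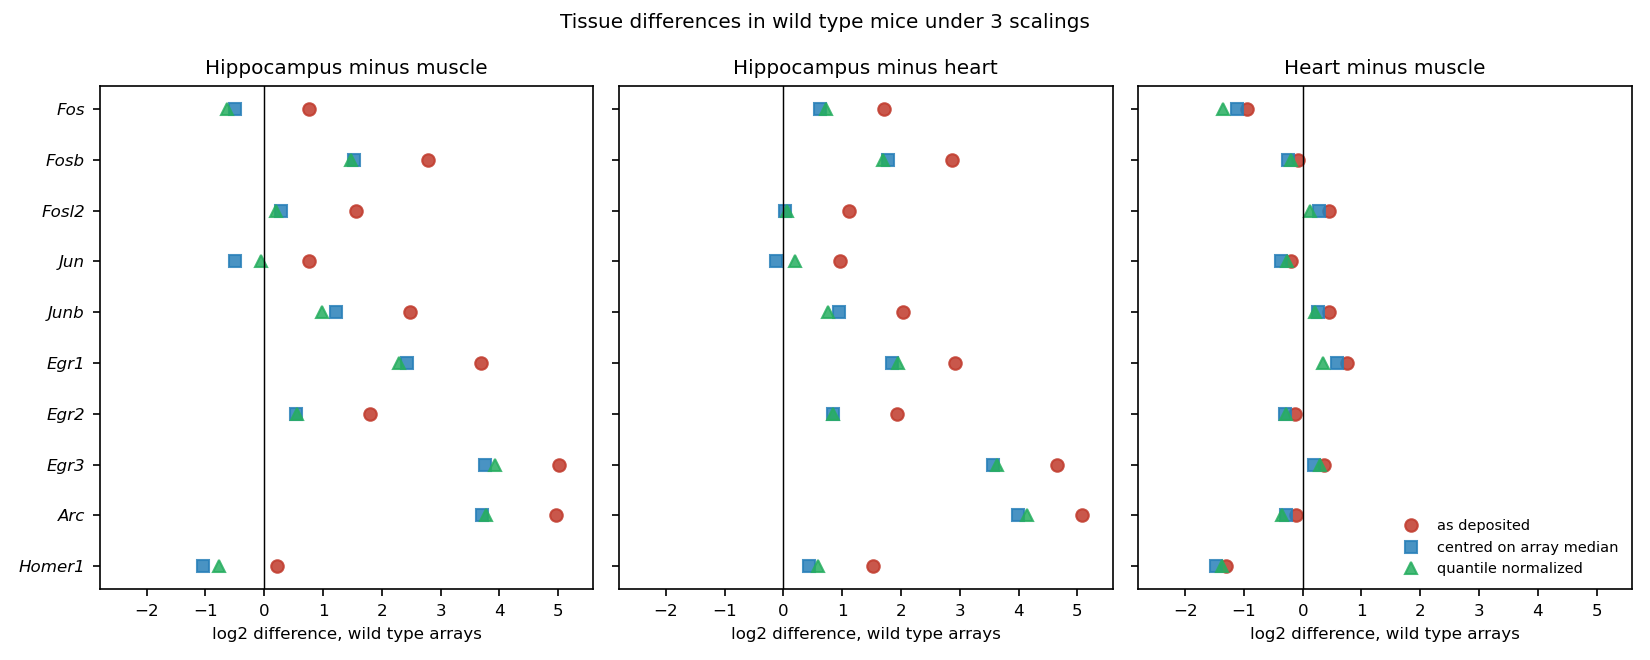
Log2 differences between tissues of wild type mice (x axis, 3 arrays in each tissue) for the 10 genes, with red circles for the deposited values, blue squares for arrays centred on their medians and green triangles for quantile normalized arrays. Arc and Egr3 stay between 3.56 and 5.08 above both striated muscles in each scaling, while Fos, Jun and Homer1 move across 0 between hippocampus and muscle.

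Other genes of the same pathways were followed as 6 lists of 107 genes, of which 97 were measured. Of the 40 other immediate early genes, 6 rose and 3 fell in transgenic muscle, 3 rose and 2 fell in transgenic heart, and none was called in hippocampus, beside 8.15%, 3.19% and 0% of all probe sets called in muscle, heart and hippocampus. Tested over single-symbol probe sets, 11 rose and 4 fell in muscle, and 6 rose and 2 fell in heart. Of the 21153 single-symbol probe sets, 2975 were then called in muscle and 1285 in heart, in either direction. Their median difference was 0.21 in muscle, 0.11 in heart and 0.09 in hippocampus, against 0.02, 0.00 and −0.01 over all probe sets. In hippocampus 7 of the 40 had an unadjusted p under 0.05, all higher in transgenic mice, beside 5.04% of all probe sets in either direction. For 13 of the 40 every transgenic array lay above every wild type array, with none the other way. Of all probe sets 5.95% lay above in this way, and 13.3% were apart in either direction.

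In muscle, Nr4a3, an orphan nuclear receptor gene, averaged 6.19 ± 0.23 on transgenic and 3.84 ± 0.74 on wild type arrays (SD; difference 2.35 ± 0.26, adjusted p = 3.96e-05). Mcl1, which encodes a relative of BCL2 that protects from apoptosis, rose by 0.58 ± 0.10 (adjusted p = 0.00145), and Nfkbia, the inhibitor of NF-kB, by 0.93 ± 0.19 (0.00569). Myc, the growth-promoting transcription factor gene, fell by 1.23 ± 0.21 (adjusted p = 0.00129). On the muscle arrays alone, Nr4a3 (0.0288) and Mcl1 (0.0348) were called, the other 7 were not, and no fallen gene of the list was. Without wild type array 2, 3 rose and 2 fell; without transgenic array 1, 3 and 3; without wild type array 3, 6 and 1.

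In heart, Nr4a1, a relative of Nr4a3, averaged 5.81 ± 0.33 on transgenic and 4.48 ± 0.37 on wild type arrays (SD; difference 1.33 ± 0.21, adjusted p = 0.00254). Zfp36, which encodes an mRNA-destabilising protein, rose by 0.83 ± 0.19 (0.0303). The matricellular gene Ccn1 fell by 1.05 ± 0.18 (adjusted p = 0.00432), and Srf, which encodes serum response factor, fell by 0.43 ± 0.10 (0.0315). None of the list was called on the heart arrays alone, and 1 rose and 1 fell when wild type array 1, wild type array 2 or transgenic array 2 was omitted. Without wild type array 3, 3 rose and 1 fell, and without transgenic array 3, 2 and 1. In hippocampus the smallest unadjusted p of the list belonged to Nfkbia (0.70 ± 0.19, adjusted p = 0.591), Nr4a1 (0.66 ± 0.21, 0.800), Sgk1 (0.57 ± 0.20, 0.859) and Mcl1 (0.23 ± 0.10, 0.960).

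**Figure D4:**
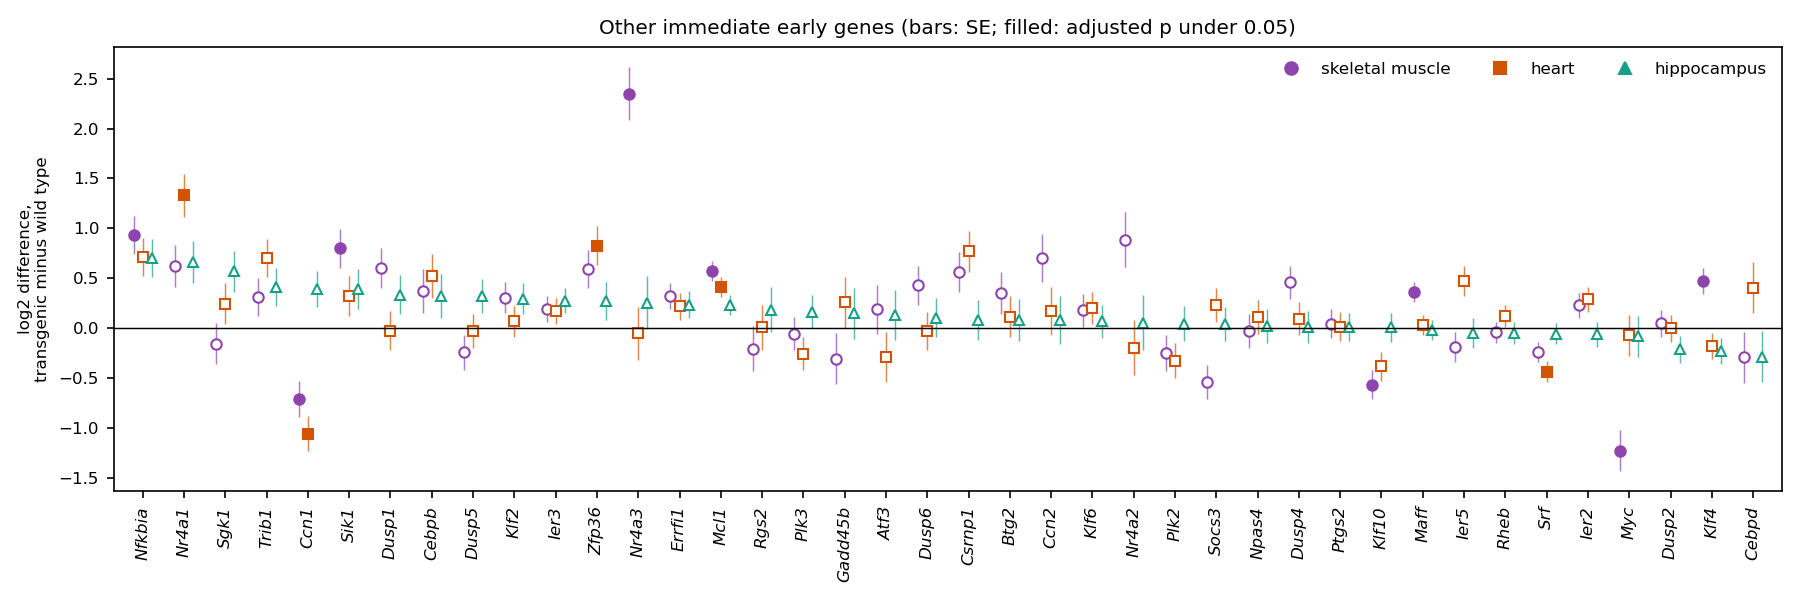
Log2 differences, transgenic minus wild type (y axis), of the 40 other immediate early genes (x axis, ordered by the difference in hippocampus) in skeletal muscle (purple circles), heart (orange squares) and hippocampus (green triangles), with bars for the SE and filled points for an adjusted p under 0.05. Of the filled points 9 are in muscle, 5 in heart and 0 in hippocampus, and Nr4a3 in muscle is the highest at 2.35.

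Nab2, which encodes a corepressor of the Egr proteins and is itself an Egr target, rose in transgenic muscle, averaging 5.70 ± 0.17 on transgenic and 4.61 ± 0.24 on wild type arrays (SD; difference 1.09 ± 0.13, adjusted p = 5.75e-05), and was called on the muscle arrays alone too (0.0235). Its genotype difference varied with tissue (interaction adjusted p = 0.00486), with −0.03 ± 0.13 in heart and 0.24 ± 0.13 in hippocampus. The other corepressor gene Nab1 differed by 0.27 ± 0.12 in muscle (adjusted p = 0.222), and Egr4, the last Egr family gene, by −0.04 ± 0.19. In heart and hippocampus none of the 3 genes was called (Egr4 at −0.49 ± 0.19 in heart, adjusted p = 0.215, and 0.38 ± 0.19 in hippocampus). At an unadjusted p under 0.05, Egr4 was lower in heart and none of the 3 differed in hippocampus. Among all 35382 probe sets an unadjusted limma p of 0.0509 in heart (Egr3) ranked 5380. In hippocampus 5.04% of all probe sets were under 0.05.

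Of the 11 measured other AP-1 partners of 12 listed, 1 rose and 1 fell in muscle, beside 8.15% of all probe sets called there, and none was called in heart or hippocampus. Batf, an AP-1 factor of lymphocytes, fell by 0.41 ± 0.10 (adjusted p = 0.0171), and Maff, a small Maf gene also counted among the 40, rose by 0.36 ± 0.10 (0.0412); both had group means under the array median in muscle. Neither was called on the muscle arrays alone (0.0924 and 0.190), nor without array 2 of either genotype. Without wild type array 3, transgenic array 1 or transgenic array 3, Batf was called and Maff was not. At an unadjusted p under 0.05, 1 was higher and 1 lower in heart and none differed in hippocampus. Among all 35382 probe sets an unadjusted limma p of 0.0509 in heart (Egr3) ranked 5380. In hippocampus 5.04% of all probe sets were under 0.05. In heart Batf differed by −0.35 ± 0.10 (adjusted p = 0.0768). Jdp2, a Jun dimerisation partner, had the smallest unadjusted p of the list in hippocampus, at 0.16 ± 0.14.

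Of 21 measured upstream kinases and transcription factors of 26 listed, 4 fell and none rose in transgenic muscle, and 2 rose and 1 fell in heart. Of all probe sets 4.3% were called lower and 3.86% higher in muscle, and 3.19% either way in heart. Under quantile normalization of all arrays 1 of the list rose and 2 fell in muscle, beside 3066 of all 35382 probe sets called. Over single-symbol probe sets 1 rose and 5 fell, beside 2975 of 21153 called. In muscle Crtc2, a coactivator of CREB, fell by 0.59 ± 0.09 (adjusted p = 6.06e-04), the JNK gene Mapk9 fell by 0.39 ± 0.09 (0.00945), Map2k2, a MAP kinase kinase gene of the ERK pathway, fell by 0.42 ± 0.10 (0.0168) and Rps6ka3, an RSK kinase gene, fell by 0.28 ± 0.07 (0.0314). Of these, Crtc2 alone was called on the muscle arrays by themselves (0.0496), and 2 of the list were called lower without wild type array 3 or without transgenic array 1. In heart Rps6ka5, which encodes the histone kinase MSK1, rose by 0.66 ± 0.09 (adjusted p = 0.00111), Mrtfb, a coactivator of serum response factor, by 0.41 ± 0.10 (0.0305, with 1 of its 3 probe sets called), and Srf fell as given above. None was called on the heart arrays alone. Leaving out 1 heart array at a time left 1 or 2 called higher, and no lower call was left when wild type array 1, 2 or 3 or transgenic array 2 was the one omitted. In hippocampus Elk1, a serum response factor partner, differed by −0.33 ± 0.09 (adjusted p = 0.562), and limma called 0 of 21. At an unadjusted p under 0.05, 1 was lower, beside 5.04% of all probe sets in either direction.

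Of the 12 measured Homer and Arc partners of 16 listed, 1 rose and 1 fell in muscle, and 1 rose and 1 fell in heart, beside 8.15% of all probe sets called in muscle and 3.19% in heart. In muscle Camk2a, a calcium/calmodulin-dependent kinase gene, fell by 0.48 ± 0.11 (adjusted p = 0.0121), and Trpc1, a cation channel gene, rose by 0.43 ± 0.11 (0.0259). In heart Ryr2 fell as given above, and the endophilin gene Sh3gl3 rose by 0.47 ± 0.10 (0.0208). None of these 4 was called when the tissue was fitted alone. Camk2a and Trpc1 were also lost without wild type muscle array 2, and Trpc1 without array 1 of either genotype. Sh3gl3 was lost without array 1 or array 3 of either genotype. In hippocampus limma called 0 of 12, and 1 had an unadjusted p under 0.05, Ryr1 at −0.15 ± 0.07, beside 5.04% of all probe sets.

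The 13 late response genes of neurons, which follow the immediate early genes in stimulated neurons, had no limma call in any tissue. At an unadjusted p under 0.05, 1 was lower in muscle, 1 higher and 1 lower in heart, and 1 higher in hippocampus. Such p-values were common among all 35382 probe sets. An unadjusted limma p of 0.0794 in muscle (Jun) ranked 8250, and one of 0.0509 in heart (Egr3) ranked 5380. In hippocampus 5.04% of all probe sets were under 0.05. Without transgenic muscle array 1, 1 was called lower in muscle. In hippocampus Pcsk1, a prohormone convertase gene, averaged 6.99 ± 0.15 on transgenic and 6.57 ± 0.06 on wild type arrays (SD; difference 0.42 ± 0.14, unadjusted p = 0.00911, adjusted p = 0.816). In that tissue 4 of the 13 had all transgenic arrays above all wild type arrays and 0 had all below, beside 5.95% of all probe sets above. The 12 Homer and Arc partners had 0 all above and 4 all below there, and the 21 upstream genes 1 and 3. The 11 other AP-1 partners had 0 and 1, and the 3 Egr family and Nab genes 2 and 0. Of all probe sets 13.3% were apart in either direction. The enkephalin gene Penk differed by −0.49 ± 0.16 in muscle (adjusted p = 0.0909), and Gadd45g, a stress response gene, by 0.74 ± 0.31 in heart (adjusted p = 0.258).

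The 10 genes did not all vary together. After the mean of each tissue was subtracted, Pearson's r over the 18 arrays ran from −0.53 to 0.76 across the 45 pairs, with a median of 0.30 and 29 pairs above 0. The arrays share tissue, genotype and normalization, so these are descriptions without a test. The highest r was between Fos and Arc (0.76), followed by Junb and Egr1 (0.75) and by Fosl2 and Arc (0.73), and the lowest was between Junb and Homer1 (−0.53). With the mean of each of the 6 groups subtracted instead, the range was −0.75 to 0.83 and the median 0.08, and Fos correlated with Egr1 at 0.83 and with Arc at 0.81.

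Among 11322 genes read above the median of all probe sets, those whose values over the 18 arrays were most like a called member, by the same r with tissue means subtracted, were listed for the 5 called members. As the highest of 11322 candidates, these r are high in part by selection, and the genotype differences were not subtracted. Homer1 had the closest, with Kcnab1 at 0.96, Nek9 at 0.94, 6430548M08Rik at 0.94, Plcb3 at 0.93 and Zc3h11a at 0.93. Kcnab1, a potassium channel subunit gene, differed by −0.69 in muscle, −0.19 in heart and −0.0043 in hippocampus, and Plcb3, a phospholipase C gene, by −0.83, −0.38 and 0.03. Egr1 was nearest to Aldh9a1 and Atpif1 (0.88 each), Pld3 and Lzts1 (0.85 each) and Rps25 (0.81). Arc was nearest to Wdr17 and Ngef (0.88 each) and to Nr4a1, Rpl22 and Psmf1 (0.87 each). Junb was nearest to Ctnna3 (0.84), Clk2, Actn2, Lamp1 and Ung (0.82 to 0.83), and Egr3 to Kcnma1 (0.84), Mypn (0.83), Snord104 (0.82), Rpl38 and Smarcd1 (0.81 each).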

How the data were processed

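The deposited table holds log2 values that the authors computed with RMA, and R 2.10.0 is listed beside it, per the submitters' processing notes. RMA corrects background, normalizes arrays to each other and summarises each probe set. Whether all arrays were normalized together is not given in the sources used here. Groups and replicate numbers came from the sample labels. The annotation gave 1 gene symbol for 21153 of 35382 probe sets, several for 1867 and none for 12362, and 21123 of those with 1 matched RefSeq genes (GRCm38.p6).

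One limma fit (limma 3.58.1 under R 4.3.3) of 6 group means to the deposited values gave every comparison, with 12 residual and 2.67 prior degrees of freedom. P-values were two-sided and Benjamini-Hochberg adjusted over all 35382 probe sets of a comparison, and called under 0.05. An SE from this fit also reflects the spread in the other tissues. The number of arrays, 3 in a group, limits the precision. Named were the 10 members, up to 4 genes of each list with the smallest unadjusted p in a genotype comparison, and the 5 genes most like each called member. A list gene with several probe sets was taken from the one with the highest mean. The members and lists were chosen with earlier results of these data known, and the pairwise tests behind the interaction were run in addition to it. Alternatives were other arrays in the fit, replicate blocks, median centring, quantile normalization, a filter on dim probe sets, single-symbol probe sets, gene means, a trended robust prior, array weights, stricter thresholds and leaving out each array. The procedure was tested on simulated data. Promoters were searched with Python 3.11.15, and figures drawn with matplotlib 3.10.9.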

Additional observations from a re-analysis of the deposited data

Results flagged for a closer look

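The genotype difference of Egr1 varied between tissues by a test of the difference itself (limma interaction of genotype and tissue, adjusted p = 0.00524), with 1.03 in muscle, −0.64 in heart and 0.72 in hippocampus. The genotype difference of Homer1 also varied between tissues by that test (adjusted p = 0.0213), with −0.65 in muscle, −0.25 in heart and 0.07 in hippocampus.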

How the results depend on the processing

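In muscle 4 members were called as reported, 1 with only the arrays of the tissue in the fit, 2 with a limit of 1.5-fold, and 3 to 4 with 1 array left out. In heart 1 was called, 0 with only the heart arrays, with quantile normalization of all arrays or at an adjusted p under 0.01, 2 with single-symbol probe sets or gene means, and 0 to 1 with 1 array left out; without transgenic array 3 the 1 call was Fosl2 and not Arc. In hippocampus 0 members were called in all 19 alternatives, the lowest adjusted p being 0.136 (Fosb, array weights). For the mean genotype difference 3 were called, 5 without the dimmer probe sets, 6 with single-symbol probe sets or gene means, 1 at 1.5-fold and 3 to 4 with 1 array left out. The share of all probe sets called for this mean, 5.8%, is given for the main setting only. The interaction called 2, and 3 without the dimmer probe sets, with single-symbol probe sets or with gene means. It called 1 at an adjusted p under 0.01, 0 with the replicate block and 1 to 3 with 1 array left out. Wild type heart against muscle called 6, 2 after quantile normalization, 3 at 1.5-fold and 5 to 6 with 1 array left out; hippocampus against muscle called 9 to 10 with 1 array left out. Over all probe sets 2884 were called in muscle and 838 with only the muscle arrays, and 1128 in heart and 36 with only the heart arrays.

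Against wild type muscle, wild type hippocampus was at −0.50 (Fos), −0.50 (Jun) and −1.04 (Homer1) after centring and at −0.64, −0.061 and −0.77 after quantile normalization, and Jun was at −0.12 against heart after centring. Jun in heart was at −0.00067 with array weights. With 1 array left out, the genotype difference ran from −0.17 to 0.16 for Jun in heart, −0.25 to 0.38 for Egr2 in heart, −0.043 to 0.40 for Fos in heart and −0.042 to 0.024 for Fosb in muscle, and Arc in wild type heart against muscle from −0.27 to 0.069. The cause was not tested. Of 190 values of members in muscle 176 kept direction and side of the threshold, of 190 in heart 173, and of 190 in hippocampus all did. Most of these values belong to members not called in the main fit, so the totals say little about the calls. In muscle the call was kept in 19 of 19 alternatives for Homer1, 18 for Egr1, 17 for Junb and 10 for Egr3. In heart Arc kept its call in 11 of 19.

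Same-numbered transgenic and wild type arrays of a tissue deviated together weakly if at all (r of −0.07 to 0.05 in 9 pairs, −0.07 to 0.06 in 18 pairs of different number). For arrays of 1 genotype in different tissues r was −0.05 to 0.09 in 18 same-numbered pairs and −0.06 to 0.08 in 36 others. The numbers were therefore not taken as pairs, though so few arrays cannot exclude a weak pairing. With the replicate block 3 members were called in muscle, 0 in heart (Arc, adjusted p = 0.159) and 0 by the interaction (Egr1 0.0909, Homer1 0.0984), and the mean difference of Arc had 0.0964. Counts of list genes under these settings were added after seeing the data. With single-symbol probe sets 11 of the 40 other immediate early genes rose in muscle and 6 in heart. In that setting 2975 of 21153 probe sets were called in muscle and 1285 in heart, in either direction. With quantile normalization 1 upstream gene rose and 2 fell in muscle, where 3066 of 35382 probe sets were called. RMA values carry no detection call, so levels near or under the array median leave the size of their differences uncertain. This holds for Fosb, Egr2, Egr3, Junb and Arc in the striated muscles, Fos in heart, and wild type Fos and Egr2 in hippocampus.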
